A study of Caenorhabditis elegans with 3 samples.

Results

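The histone genes of Caenorhabditis elegans were examined in late young adult hermaphrodites, the self-fertile sex of this nematode, relative to a mixed wild-type RNA. A gene was taken as a member when its probe carried exactly 1 gene symbol in the platform annotation, that symbol began with his or hil and a number, and a log2 ratio was present on all 3 arrays. This gave 62 genes, each with 1 probe, out of 19264 features that had 3 values. Features were genes, or single probes with no gene symbol or several, and are also called genes below. By class there were 49 core histone genes, 5 genes of the H3.3 type and 8 linker histone genes. A further 18 histone symbols of the RefSeq gene table were not analysed here, among them the linker gene hil-2.

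Each of the 3 arrays had 2 channels. Channel 2 held RNA from preparation 1, 2 or 3 of late young adult hermaphrodites (labelled TP08 YA2), and channel 1 held the wild-type mixed reference (labelled wt mixed reference mRNA). The labels name the same samples mRNA in 1 field and total RNA in another. They state neither the strain, the age, the stages in the reference, the dyes nor whether the preparations were separate cultures. A p-value here therefore speaks only for these preparations, and part of their scatter may be technical. All values below are log2 ratios taken as likely adult over reference, since each array is described as the hermaphrodite preparation against the reference, with the hermaphrodite RNA in channel 2. With the other direction every "higher" would read "lower", also for the germline, oocyte and adult cuticle markers given next.

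The labelled stage was set beside marker genes, in lists chosen with earlier results of these data known. All 9 measured genes of a germline list of 10 passed the threshold given below as higher, and their median log2 ratio was 2.37. Higher calls were made for 6 of 7 genes of the oocyte and eggshell and for 4 of 6 genes of the adult cuticle and yolk, with no lower call. In the larval moulting list 9 of 10 genes were lower and 0 higher, and the 8 genes of the zygotic embryo split into 2 higher and 3 lower. The 3 arrays held values for 19833 to 19913 probes, with array medians of 0.05, 0.01 and 0.02.

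Histones package DNA into nucleosomes, in which pairs of H2A, H2B, H3 and H4 form a core that the DNA wraps around, while linker histones of the H1 family bind the DNA where it enters and leaves that core. Core histone genes lie in small clusters in many near-identical copies and are transcribed mainly when DNA is replicated, and in animals most of their mRNAs end in a stem-loop in place of a poly(A) tail. Variants such as H3.3 are made throughout the cell cycle and replace core histones outside replication. In the adult hermaphrodite nearly all dividing cells are in the germline and in the embryos that it carries.

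The histone genes did not move as a family. By limma with Benjamini-Hochberg adjustment over all genes and a threshold of 0.05, 5 of the 62 members were higher in the adult and 16 were lower, and 41 did not pass. Over all features 19.6% of genes were called higher and 18.8% lower, 38.4% in all, so the share of members called, 33.9%, was near the background. The share called lower was 25.8% and the share called higher 8.06%. Leaving out array 1 gave 7 members called higher with 19 called lower, leaving out array 2 gave 5 with 10 and leaving out array 3 gave 3 with 9. The share of all genes called moved the same way in these fits, to 43.9%, 30.9% and 27.8%. Without array 2 or without array 3 the adjusted p followed almost only the size of the mean. Calls kept or lost in those fits therefore do not measure how well the arrays agree. A one-sample test of each gene without moderation called 0 of the 62 after adjustment, as it did for all genes, and left 22 members below 0.05 before adjustment, where limma had 26. The median of the members' mean log2 ratios was −0.18, against 0.04 over all genes. The classes differed in spread more than in median. Array medians averaged −0.23 ± 0.09 (SD, n = 3 arrays) for the core genes, 0.17 ± 0.21 for the H3.3 type and 0.03 ± 0.14 for the linker genes, against 0.03 ± 0.03 for all genes. Without array 1, 2 or 3 the H3.3-type value was 0.29, 0.12 or 0.10 and the linker value −0.01, 0.11 or −0.0022, so no direction was read from the linker value. The SD between members was 0.37 for core genes and 1.61 for linker genes, against 0.79 between all genes. The H4 genes stood lowest of the core classes, with a median of −0.53, against −0.18 for H2B, −0.11 for H3 and 0.02 for H2A.

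**Figure D1:**
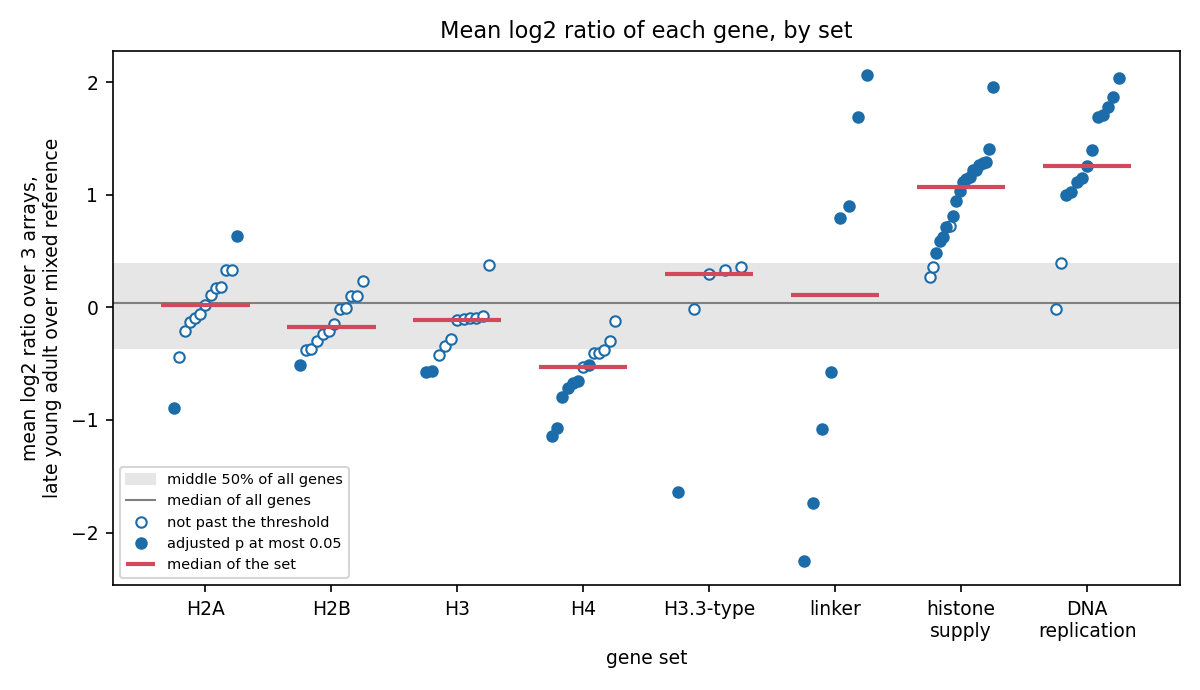
Mean log2 ratio over 3 arrays (vertical axis) of each gene in the histone classes and in the lists of histone supply and DNA replication genes (horizontal axis), with the median of each set as a line and the middle 50% of all genes as a grey band. The linker genes run from −2.25 to 2.06 and all are filled points, the core classes lie mostly inside or below the band, and the supply and replication genes lie mostly above it.

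The linker histone genes held the largest ratios of the family in both directions. Of 8 measured, 4 were higher (hil-4, hil-5, hil-6 and hil-8) and 4 were lower (hil-1, hil-3, hil-7 and his-24), so that all 8 passed where 38.4% of all genes did. In whole-animal RNA, fewer cells of a type and less RNA per cell cannot be told apart, and a ratio here is a share of the RNA.

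The highest was hil-4, a histone H1-like gene, with log2 ratios of 1.65, 1.97 and 2.57 on arrays 1, 2 and 3. All 3 values were well above 0, and array 3 was the highest. The mean was 2.06 ± 0.47 (SD, n = 3), or 4.18-fold (limma adjusted p = 0.000206), and 147 of the 19264 genes lay higher. The H1-like gene hil-5 gave 1.28, 1.65 and 2.14, again lowest on array 1 and highest on array 3. Its mean was 1.69 ± 0.43, or 3.23-fold (limma adjusted p = 0.000412). hil-4 lay above hil-5 by 0.37, 0.32 and 0.43 on the arrays, so the order of the pair was the same on each.

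The other linker genes that were higher moved less. hil-6 gave 1.03, 0.53 and 0.83, a mean of 0.80 ± 0.25 and a limma adjusted p of 0.00629. hil-8 gave 0.54, 0.57 and 1.57, a mean of 0.90 ± 0.59 and a limma adjusted p of 0.0144. Array 3 alone carried the high value of hil-8. Without array 3 its mean was 0.56 and it did not pass (limma adjusted p = 0.115). The sperm marker list was also highest on array 3, with medians of 0.93, 0.57 and 1.77 and with 8 of 10 genes higher. So were hil-4, hil-5 and the adult cuticle and yolk list, whose medians were 1.23, 1.28 and 1.79. The oocyte and eggshell list was lowest there, with medians of 1.57, 1.97 and 1.40. The part of any of these lists in the value of hil-8 was not tested.

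The lowest histone gene was the H1-like gene hil-3, with log2 ratios of −2.17, −2.47 and −2.12. The arrays lay close together, and the mean was −2.25 ± 0.19, or 4.77-fold lower (limma adjusted p = 7.33e-05). Only 254 of the 19264 genes lay lower. The H1-like gene hil-7 gave −1.57, −2.08 and −1.58, a mean of −1.74 ± 0.29 and a limma adjusted p of 0.000218. The distance from hil-4 to hil-3 was 3.82, 4.44 and 4.69 on the arrays, a mean of 4.32 ± 0.45 on the log2 scale. With 3 arrays an exact sign-flip test of such a difference cannot give a two-sided p below 0.25, so none was used.

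The gene his-24 encodes H1.1, the linker histone studied most in the worm, which has been tied to gene silencing in the germline. It gave −0.81, −1.44 and −0.99, below 0 on each array, with a mean of −1.08 ± 0.33, or 2.11-fold lower (limma adjusted p = 0.00199). hil-1 was nearest to 0 among the linker genes, at −0.30, −0.78 and −0.63, with a mean of −0.57 ± 0.25 and a limma adjusted p of 0.0272. It did not pass without array 2 (mean −0.46, limma adjusted p = 0.201) or without array 3 (mean −0.54, limma adjusted p = 0.133). The 6 linker genes other than hil-1 and hil-8 passed with any 1 array left out. Without array 2 or without array 3 this follows almost only from the size of their means and does not measure agreement between arrays. In the order of means, hil-8 and hil-6 did not differ beyond their spread.

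**Figure D2:**
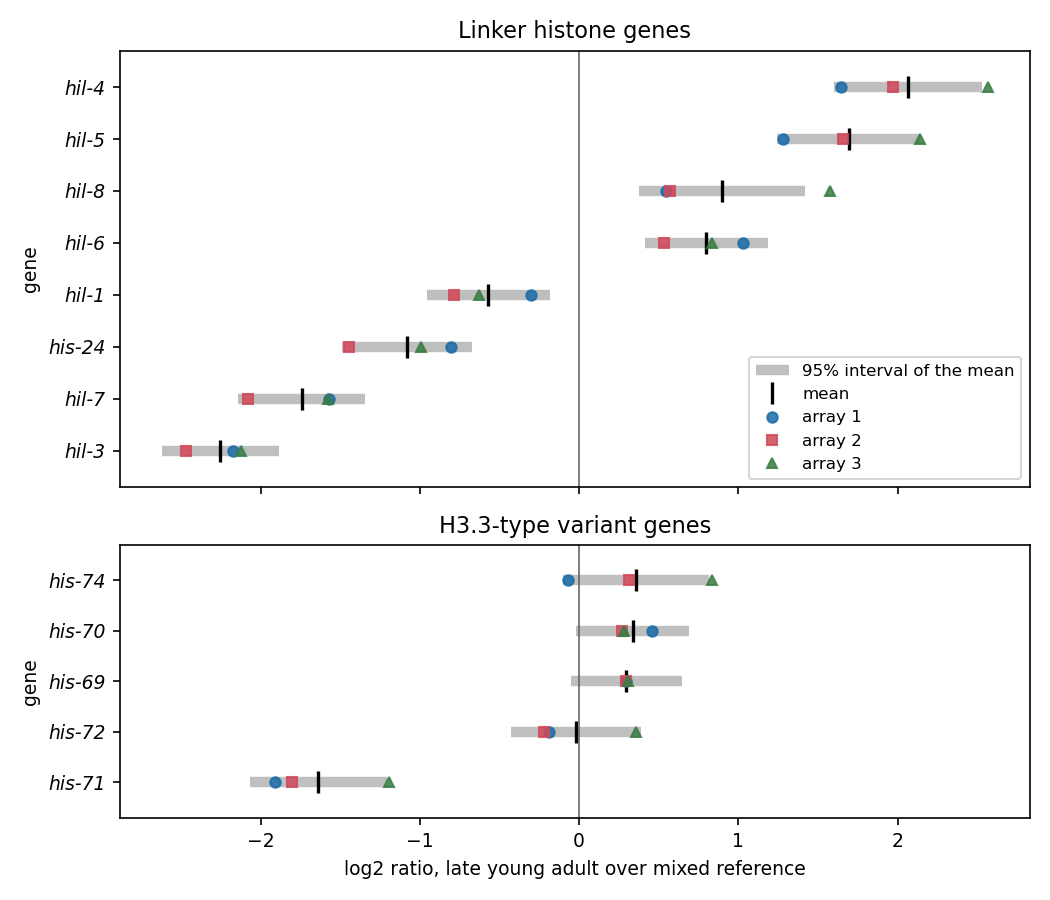
Log2 ratio (horizontal axis) of each linker gene (upper panel) and each H3.3-type gene (lower panel) on arrays 1, 2 and 3, with the mean as a tick and its moderated 95% interval as a grey bar. hil-4, hil-5, hil-8 and hil-6 lie right of 0 and hil-1, his-24, hil-7 and hil-3 left of it on every array, and his-71 lies apart from the other H3.3-type genes.

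Among the 5 genes of the H3.3 type, which encode replacement H3, his-71 was lower and the other 4 did not pass. The share called lower, 20%, was near the 18.8% over all genes, and 0 were called higher, against 19.6% of all genes. his-71 gave −1.91, −1.81 and −1.19, a mean of −1.64 ± 0.39, or 3.11-fold lower (limma adjusted p = 0.000395). Its values lay below those of every other member of the type on every array. The gene his-72, which encodes the other widely studied worm H3.3, gave −0.19, −0.22 and 0.36, a mean of −0.02 ± 0.32 with a moderated 95% interval of −0.43 to 0.39. The difference, his-71 minus his-72, was −1.72, −1.58 and −1.55 on the arrays, a mean of −1.62 ± 0.09. The SD of this difference was smaller than that of either gene, and both genes were highest on array 3.

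The remaining 3 H3.3-type genes lay slightly above 0. his-69 gave 0.29, 0.30 and 0.30, and its neighbour in the genome, his-70, gave 0.46, 0.27 and 0.28. Their means of 0.30 ± 0.01 and 0.34 ± 0.11 did not differ beyond their spread, and neither passed (limma adjusted p = 0.161 and 0.125). The H3.3-type gene his-74 was the most variable of these, at −0.07, 0.31 and 0.84, a mean of 0.36 ± 0.45 and a limma adjusted p of 0.197. It passed without array 1, with a mean of 0.57 and a limma adjusted p of 0.0440, and without array 3 its mean was 0.12 (limma adjusted p = 0.786).

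All 13 measured H4 genes had mean log2 ratios below 0, and 12 of them were below 0 on every array. Of the 13, 7 were called lower and 0 higher, 53.8% against 18.8% of all genes called lower. Near-identical copies may share signal, so the 13 may not be independent measurements. The array medians of the class were −0.49, −0.53 and −0.58. The lowest was his-37, at −0.75, −1.48 and −1.19, a mean of −1.14 ± 0.36, or 2.21-fold lower (limma adjusted p = 0.0018). his-5 gave −1.32, −1.14 and −0.77, a mean of −1.08 ± 0.28 and a limma adjusted p of 0.0017. his-1 gave −0.68, −1.05 and −0.66, a mean of −0.79 ± 0.22 and a limma adjusted p of 0.00582. Of these 3 genes, his-37 and his-1 were lowest on array 2 and his-5 on array 1, and each of them lay below 0 on every array.

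The other 4 H4 genes that passed, named after their values were seen, were his-10, his-38, his-14 and his-56, with means of −0.72, −0.67, −0.65 and −0.51. At the upper end his-31 gave −0.18, −0.04 and −0.15, a mean of −0.12 ± 0.08. his-64 gave 0.13, −0.47 and −0.55, the one H4 gene with a value above 0, and his-46 gave −0.31, −0.39 and −0.42. None of these 3 passed (limma adjusted p = 0.570, 0.245 and 0.0875). With all arrays 7 H4 genes passed and without array 3, where fewer of all genes were called as well, 4 did. The calls lost there were those of his-10, his-14 and his-56, with means of −0.65, −0.64 and −0.58 (limma adjusted p = 0.0625, 0.0657 and 0.0986). The class median was −0.58. In that fit, and in the one without array 2, the adjusted p followed almost only the size of the mean. The call of his-14 was lost although arrays 1 and 2 gave −0.65 and −0.63. Without array 2, his-38 and his-56 were lost (limma adjusted p = 0.0886 and 0.153). With arrays weighted by their fit, which gave array 1 the least weight, 12 H4 genes were lower, and the share of all genes called was 48.9%, with 4582 genes lower against 3624 with equal weights.

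Of 11 measured genes of replication-dependent H3, the partner of H4 in the nucleosome core, 0 were higher and 2 lower, and 10 had means below 0. The share called lower, 18.2%, was near the 18.8% over all genes, while 19.6% of all genes were called higher. The array medians were 0.06, −0.38 and −0.05, lowest on array 2. The lowest was his-9, at −0.50, −0.83 and −0.38, with a mean of −0.57 ± 0.23 and a limma adjusted p of 0.0260. his-42 gave −0.42, −0.80 and −0.46, a mean of −0.56 ± 0.21 and a limma adjusted p of 0.0257. Neither passed without array 2 (means −0.44 and −0.44, limma adjusted p = 0.230 and 0.226), and neither passed without array 3, where the means were −0.67 and −0.61 (limma adjusted p = 0.0558 and 0.0822). his-59 gave −0.80, −0.29 and −0.17 and did not pass (mean −0.42 ± 0.33, limma adjusted p = 0.101).

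The highest H3 gene was his-25, at 0.74, 0.27 and 0.12, above 0 on each array but not past the threshold (mean 0.37 ± 0.32, limma adjusted p = 0.136). his-32 gave 0.17, −0.19 and −0.21, and his-63 gave 0.19, −0.43 and −0.05. Both changed sign between arrays. The H3 gene his-6, named after its values were seen, had the widest spread of the whole family, at −0.96, −0.33 and 0.28, a mean of −0.34 ± 0.62.

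The H2A genes were centred near 0, and of 13 measured 1 was higher and 1 lower, 7.69% in each direction, against 19.6% of all genes called higher and 18.8% called lower. his-47 was the one core histone gene called higher, at 0.93, 0.35 and 0.63, a mean of 0.64 ± 0.29, or 1.56-fold (limma adjusted p = 0.0196). It did not pass without array 3, where its mean was 0.64 and its limma adjusted p 0.0712. The next highest, his-43 and his-68, had means of 0.33 ± 0.25 and 0.33 ± 0.44 and did not pass (limma adjusted p = 0.163 and 0.233). his-68 gave −0.18, 0.66 and 0.50, so that array 1 stood apart, and without array 1 it passed with a mean of 0.58 (limma adjusted p = 0.0193). Without array 2 its mean was 0.16 (limma adjusted p = 0.712).

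At the lower end of H2A, his-16 gave −0.82, −1.11 and −0.76, a mean of −0.90 ± 0.19, or 1.86-fold lower (limma adjusted p = 0.00298). Its call was kept with any 1 array left out. Without array 2 or without array 3 a kept call follows almost only from the size of the mean. his-7 gave −0.99, −0.29 and −0.03 and his-35 gave −0.21, −0.40 and −0.01. Neither passed (limma adjusted p = 0.138 and 0.346). The class median of 0.02 was −0.00089 with each array centred on its median and −0.01 without array 1, so no direction was read from it.

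Of 12 measured H2B genes, whose products pair with H2A, 0 were higher and 1 lower (8.33%), against 19.6% and 18.8% of all genes. his-8 was the lower one, at −0.67, −0.48 and −0.38, a mean of −0.51 ± 0.15 and a limma adjusted p of 0.0337. It did not pass without array 2 or without array 3, with means of −0.52 and −0.57 (limma adjusted p = 0.141 and 0.104). his-41 and his-15 had means of −0.38 ± 0.30 and −0.37 ± 0.31 and did not pass (limma adjusted p = 0.122 and 0.142). The highest were his-48 at 0.23 ± 0.20, his-66 at 0.11 ± 0.39 and his-11 at 0.10 ± 0.07, and none of these 3 passed. H2B members lay within −0.51 to 0.23, the narrowest range of means of the core classes.

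**Figure D3:**
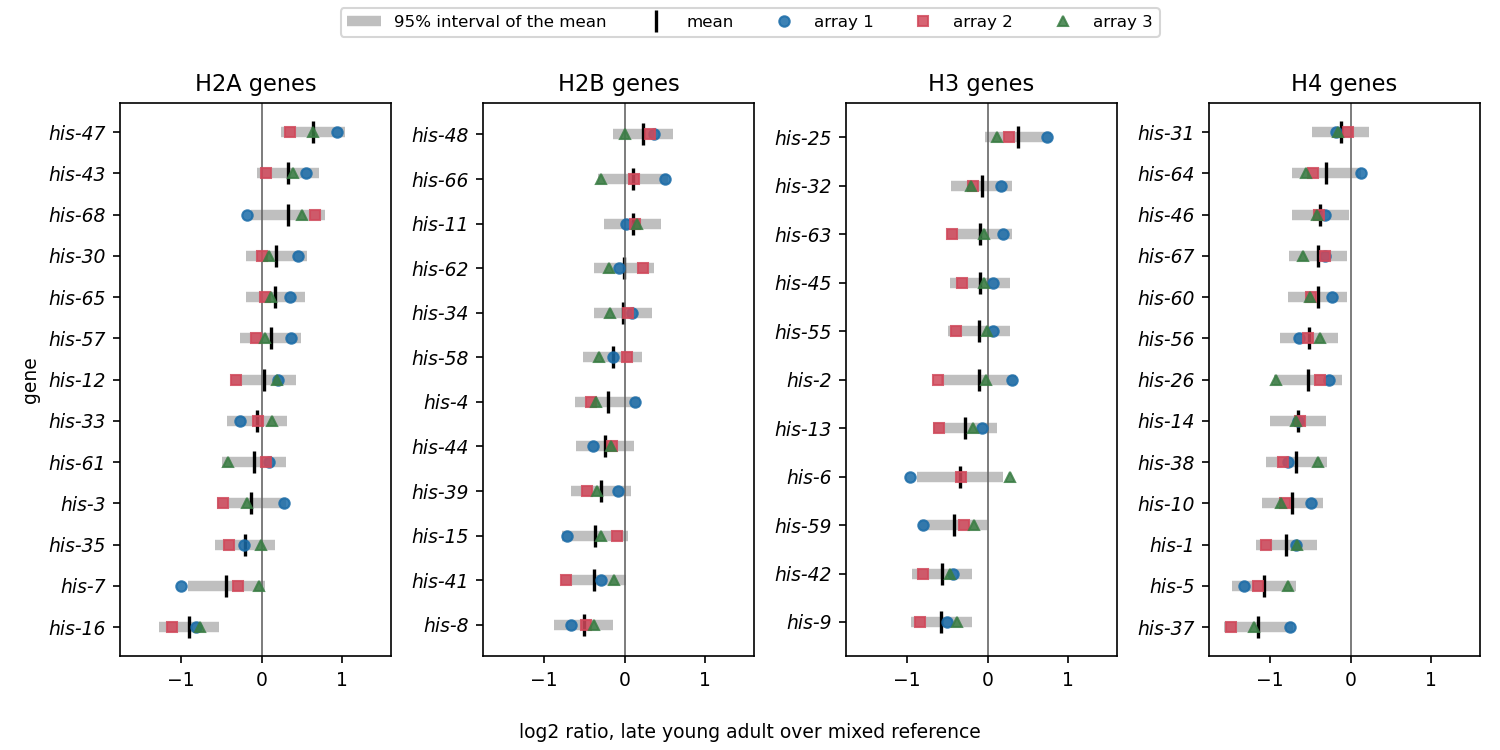
Log2 ratio (horizontal axis) of every measured core histone gene on arrays 1, 2 and 3, in a panel for each class, with the mean as a tick and its moderated 95% interval as a grey bar. All 13 H4 means lie left of 0, and so do 10 of 11 H3, 9 of 12 H2B and 6 of 13 H2A means.

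Core histone genes lie side by side as H3 with H4 and H2A with H2B, which allowed each gene to be set against its neighbour on the same array. By the gene order of the RefSeq table, 10 measured H4 genes had a measured H3 gene as close neighbour, within 500 bases. The H4 gene had the lower mean in 9 of these 10 pairs, and it was lower on all 3 arrays in 7. The pairs reuse the values of the class comparison, where the median was −0.53 for H4 and −0.11 for H3. Most H4 means lay below most H3 means whichever were paired, so the pairs are no separate evidence. The median difference, H4 minus H3, was −0.32 on the log2 scale, and it was −0.37, −0.11 and −0.49 on arrays 1, 2 and 3. The widest gap was between his-26 and his-25, at −1.01, −0.65 and −1.04, a mean of −0.90 ± 0.22. his-5 lay below his-6 by a mean difference of −0.73 ± 0.35, and his-1 below his-2 by −0.68 ± 0.27. The exception was his-60, which lay on average 0.01 above his-59, with differences of 0.57, −0.20 and −0.33 whose signs differed between arrays.

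The 11 pairs of H2A and H2B neighbours showed no such order. H2A minus H2B was above 0 in 7 pairs and below 0 in 4, with a median of 0.07 and a range from −0.53 for his-16 and his-15 to 0.57 for his-43 and his-44. It was above 0 on all 3 arrays in 3 pairs and below 0 on all 3 in 1. Pairs are not replicates, near-identical copies may share signal between probes, and no test was made over them.

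**Figure D4:**
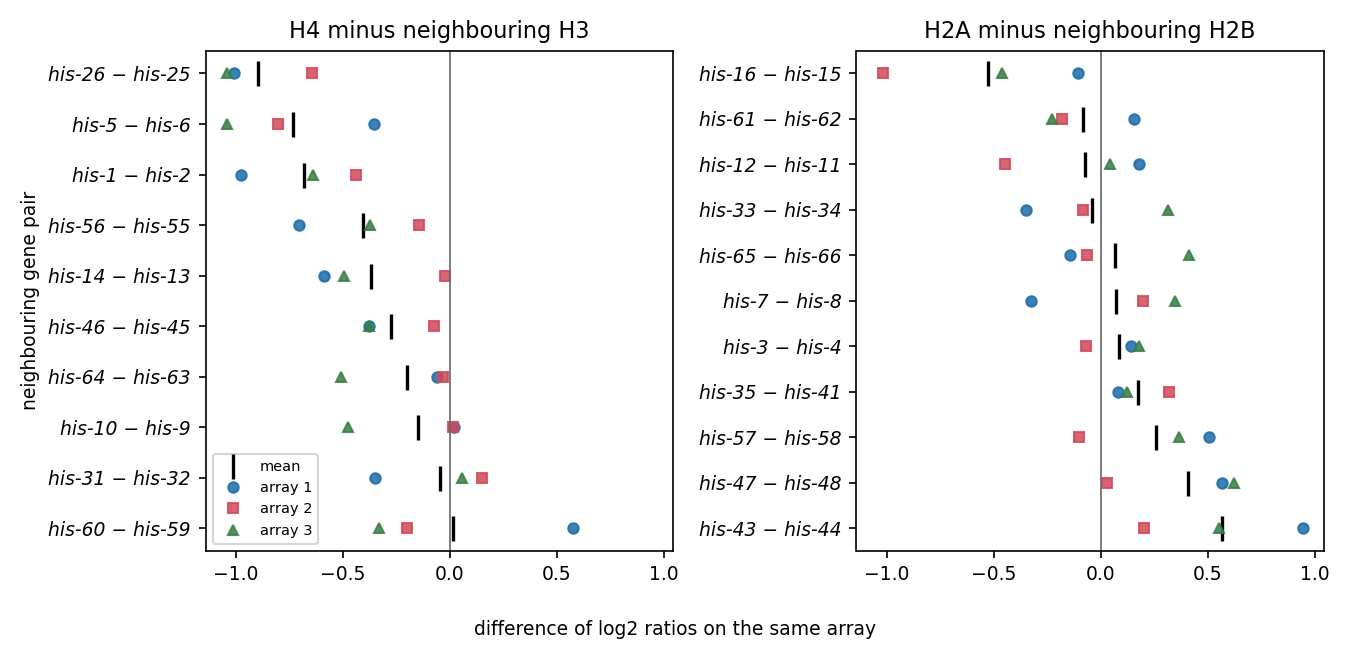
Difference of log2 ratios on the same array (horizontal axis) between neighbouring H4 and H3 genes (left) and between neighbouring H2A and H2B genes (right), for arrays 1, 2 and 3, with the mean as a tick. In 7 of the 10 pairs on the left all 3 points lie below 0, while pairs on the right lie on both sides.

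The values by cluster are a description, and no difference between clusters was tested. In the largest, with 13 measured genes running from his-16 to his-42, 5 genes were lower (38.5%, against 18.8% of all genes) and 0 higher, and the members' means ran from −0.90 to 0.37. In the cluster of his-5, his-6, his-7, his-8 and his-39 all 5 means were below 0, with array medians of −0.96, −0.47 and −0.34, and 4 of its 5 genes were lowest on array 1. The cluster of his-1, his-2, his-3 and his-4 ran otherwise, with array medians of 0.20, −0.55 and −0.26, and all 4 genes were lowest on array 2. The cluster of his-35, his-37 and his-41 was lowest on array 2 in all 3 genes. Of all 49 core genes, 12 were lowest on array 1, 22 on array 2 and 15 on array 3, so array 2 was the commonest lowest array in general. The clusters of his-30 to his-34, of his-59 to his-62 and of his-63 to his-66 held no called gene among 5, 4 and 4 measured, where 38.4% of all genes were called.

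Over the 62 members arrays 1 and 2 correlated at r = 0.85, arrays 1 and 3 at r = 0.79 and arrays 2 and 3 at r = 0.90, as a description over genes measured against the same reference. Over the 49 core genes alone the values were 0.62, 0.55 and 0.73. Of the 62 members, 42 had 1 sign on all 3 arrays, among them the 8 linker genes. The median SD between arrays was 0.23 for core genes and 0.31 for linker genes, against 0.27 for all genes. Set against the SD between members, 0.37 for core and 1.61 for linker genes, the arrays separated linker genes more clearly than core genes.

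Genes that supply, carry or deposit histones were set beside the members. A list of 22 such genes, chosen with earlier results of these data known, was used, and 20 of them were measured. Of these, 17 were higher (85%) and 0 lower, where 19.6% of all genes were called higher, and the median was 1.07 against 0.04 over all genes.

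Among chaperones of H3 and H4, nasp-2 gave 2.27, 1.62 and 1.98, a mean of 1.96 ± 0.32 and a limma adjusted p of 0.000151. The related nasp-1 lay at 1.22 ± 0.22. The Asf1 chaperone genes unc-85 and asfl-1 lay at 1.04 ± 0.40 and 0.94 ± 0.16, and lin-53 and rba-1, which encode histone-binding WD-repeat proteins, at 1.14 ± 0.15 and 0.62 ± 0.10. The subunits of FACT, a chaperone that moves with polymerases, were all higher, spt-16 at 1.28 ± 0.20, hmg-3 at 1.22 ± 0.17 and hmg-4 at 0.81 ± 0.24. hira-1, of the pathway that deposits H3.3, lay at 1.16 ± 0.34, and xnp-1, the ATRX homologue, at 0.59 ± 0.10. nap-1 and hat-1, given to complete the list, did not pass, at 0.36 ± 0.32 and 0.27 ± 0.12.

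Genes of histone mRNA and of the centromere were higher as well. cdl-1, which encodes the protein that binds the histone mRNA stem-loop, gave 0.91, 1.40 and 1.5, a mean of 1.27 ± 0.31 and a limma adjusted p of 0.000892. The Argonaute gene csr-1 and the exonuclease gene eri-1 lay at 1.11 ± 0.32 and 0.72 ± 0.20. The centromeric H3 gene hcp-3 gave 1.03, 1.20 and 1.65, a mean of 1.29 ± 0.32 and a limma adjusted p of 0.000842, and its relative cpar-1 lay at 0.49 ± 0.12. knl-2, which is needed to load centromeric H3, lay at 1.41 ± 0.22. htz-1, the gene of the variant H2A.Z, gave −0.04, 0.84 and 1.36, and missed the threshold (mean 0.72 ± 0.71, limma adjusted p = 0.0551), but passed without array 1 with a mean of 1.10 (limma adjusted p = 0.00489). Without array 3 its mean was 0.40 (limma adjusted p = 0.310). rba-1, xnp-1 and cpar-1 did not pass without array 2 or without array 3 (limma adjusted p between 0.0682 and 0.233), and eri-1 did not pass without array 3 (limma adjusted p = 0.0609).

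**Figure D5:**
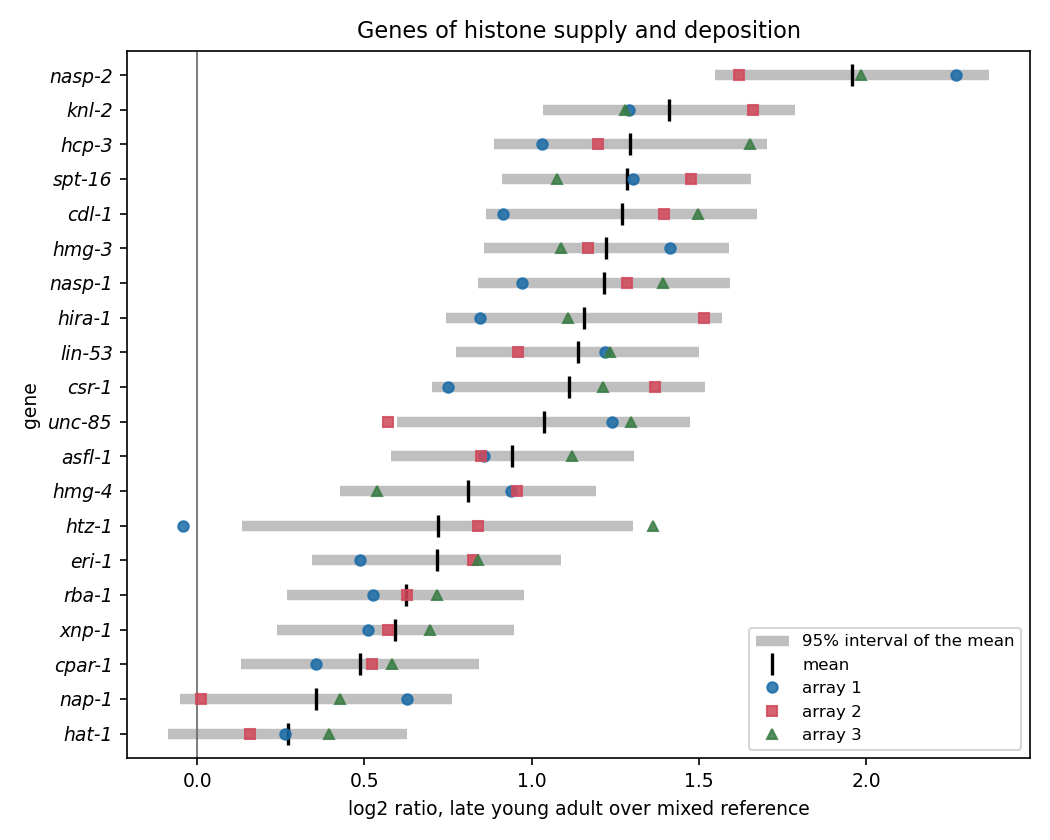
Log2 ratio (horizontal axis) of each measured gene of the histone supply list on arrays 1, 2 and 3, with the mean as a tick and its moderated 95% interval as a grey bar. All 20 means lie right of 0, from 0.27 for hat-1 to 1.96 for nasp-2.

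In the list of DNA replication genes, 13 of 15 measured, 11 were higher and 0 lower, and the median was 1.25. The core histone genes, whose transcription is tied to replication, had 1 of 49 higher and 11 lower, and a median of −0.21 on the same arrays. Of the core genes 2.04% were called higher, against 19.6% of all genes, and 22.4% lower, near the 18.8% of all genes. These counts stand side by side without a test of their difference. Most core histone mRNAs of animals lack a poly(A) tail, and the labels name the RNA both mRNA and total RNA. Whether core histone and replication mRNAs were therefore measured alike was not tested. The replication list was also chosen with earlier results of these data known. The germline list was high on every array, with medians of 2.46, 2.31 and 2.49, and its part in the values of histone, supply and replication genes was not tested.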

How the data were processed

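The authors deposited log2 ratios of 20000 probes on each array. The unit was read from the deposited values: taken as powers of 2, 99.98% of the log2 ratios fell on steps of 0.001 (to within 0.01 of a step), and 3.35% did so with the sign turned. Background correction, normalization and filtering are not given in the sources used here. No spot intensities were used, so faint spots could not be set apart, and the number of arrays limits the precision.

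Per the platform annotation, 15655 probes had 1 symbol, 198 several and 4147 none. Probes of a symbol were averaged. Gene IDs of 61 of 62 members were in the RefSeq gene table of assembly WBcel235, used for names and neighbours only. Of the core genes, 44 were classed by an annotated length equal to the coding length of H2A, H2B, H3 or H4 and 5 by gene name, because the tables hold no descriptions. The fit used lmFit and eBayes of limma 3.58.1 (R 4.3.3), and each mean ratio was compared with 0, two-sided, with Benjamini-Hochberg adjustment over 19264 genes. The reference's own spread does not enter the test, and an effect of the channel cannot be told apart from a difference. The fit was also run on simulated data with independent scatter and with effects in a small part of the features. That run does not cover effects shared by an array or a channel.

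The members and lists were chosen with earlier results of these data known. Genes named were all linker, H3.3-type and called supply genes, the 3 highest and 3 lowest of each core class and called members beyond 1. The remaining supply genes (nap-1, hat-1 and htz-1), his-6, the other called H4 genes and genes of pairs and clusters were named outside this rule, after their values were seen. Other settings were centring, quantile normalization, array weights, no moderation, a robust prior, fits per probe, genes on 2 arrays, names by gene ID and leaving out each array.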

Additional observations from a re-analysis of the deposited data

How the results depend on the processing

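With no moderation the smallest adjusted p was 0.0682, so 0 members were called higher and 0 lower, 0 of the linker, H4 and supply genes, and 0 of all genes in either direction; at an unadjusted p under 0.05 it had 22 members, 6 linker genes, 10 H4 genes and 17 supply genes, against 26, 8, 11 and 18 by limma with moderation. With array weights, which gave array 1 a weight of 0.39, 12 H4 genes were called lower, and 48.9% of all genes were called, against 38.4% with equal weights. With 1 array left out, 3 to 7 members were called higher and 9 to 19 lower, 4 to 10 H4 genes lower, 13 to 18 supply genes higher, 3 to 4 linker genes higher and 3 to 4 lower; the share of all genes called was 43.9%, 30.9% and 27.8% without array 1, 2 and 3, and 2676 to 4184 of all genes were lower. The members called with all arrays were 21; of these 21 passed without array 1, 15 without array 2 and 12 without array 3. Without array 2 or without array 3 the adjusted p followed almost only the size of the mean. Kept and lost calls there do not measure agreement between arrays. All 13 H4 means were below 0 under each setting. No called member changed sign under any setting. Names by gene ID only dropped his-42, leaving 61 members. No paired analysis was possible because the series holds 1 group. Near-identical copies may share signal, and no sequences were used here to measure this.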
